A study of Mus musculus with 8 samples.

Results

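Protocadherins and cadherins are calcium-dependent adhesion proteins of the cell surface. The transcripts described here were taken from the authors' deposited comparison of Grp94 knockdown and control N2a cells as every entry with a gene symbol that starts with Pcdh or Cdh. This gave 10 of the 2395 transcript clusters in the deposited table, a transcript cluster being the group of probes that an Affymetrix array assigns to the same gene. Of these, 8 were beta protocadherins of the cluster on chromosome 18, and the other two were Pcdh15 and Cdh2. All 8 beta protocadherins and Cdh2 were higher in the knockdown, and Pcdh15 was lower.

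Neuro2a (N2a) cells derive from a mouse neuroblastoma and serve widely as a stand-in for neurons. By the labels, 4 Affymetrix Mouse Gene 1.0 ST arrays hold RNA of cells given a control vector, which the design text of the series calls empty, and 4 hold RNA of cells with Grp94 knockdown. Grp94, encoded by Hsp90b1, is a chaperone that folds membrane and secreted proteins in the endoplasmic reticulum (ER), and it was depleted with transfected vectors that express an artificial microRNA together with a green fluorescent protein. The methods name more than one Grp94 construct and also a non-targeting control vector, and the labels do not tell which construct was on which array or whether the arrays came from separate cultures. N2a cells of both groups were transfected, and no agent or genetic change apart from the vectors is given in the labels. The arrays read RNA of whole cultures, so that a change in the number of cells expressing a gene and a change in RNA per cell cannot be told apart.

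The clustered protocadherins lie in tandem arrays called alpha, beta and gamma. In alpha and gamma, variable exons are spliced to constant exons shared within the array, whereas each beta gene is a large exon that encodes an entire protein with extracellular cadherin repeats, a membrane span and a short cytoplasmic tail. Neurons express combinations of these genes from alternative promoters that depend on CTCF and cohesin, and the proteins on neighbouring membranes recognise like combinations, which is the basis of self-avoidance between branches of a neuron. Classical cadherins such as N-cadherin link the membrane to actin through catenins. Sequences are not printed here, since the genes that carry the pattern lie on chromosome 18, whose sequence was not used.

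The only values used were the authors' mean of each group, given on a log2 scale and centred around 0 for each transcript cluster. They show a difference between groups but no level of expression, and levels cannot be set side by side between genes. Single arrays were not analysed here, so a difference cannot be set against the spread between replicates, and no test of any member was made. The deposited table itself was limited to entries with an adjusted p of at most 0.01 in the authors' test. Every listed gene therefore had to differ between groups, and the number of listed members is no support for a change. A gene that is not listed either failed the authors' filter on low expression, lay above that limit or was not measured under that name, and its value is not known here.

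The knocked down gene was examined first. The authors' mean of Hsp90b1 was 0.74 in the empty vector and -0.78 in the knockdown, a log2 difference of -1.52 or a 2.87-fold decrease. Only 2 of the 2395 transcript clusters had a lower log2 difference. Of all listed transcript clusters, 40.1% were higher and 59.9% were lower in the knockdown, and the median log2 difference was -0.16. The median of the genes that are not listed is unknown, so the zero point of the log2 scale is open to a shift, and the differences of members are also given relative to the listed median of -0.16 where this changes the reading. The listed median was taken over entries selected for a difference, of which 59.9% were lower. It is therefore no estimate of the zero point, and values relative to it only show how a shift of that size would act.

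Pcdhb6 had the largest difference among the members. Its authors' mean was -0.30 in the empty vector and 0.30 in the knockdown, which gave a log2 difference of 0.60 or 1.52-fold. Of all listed transcript clusters, 27 had a larger log2 difference. Pcdhb11 had a mean of -0.35 in the empty vector and 0.24 in the knockdown, and the log2 difference was 0.58. Pcdhb21 went from -0.21 in the empty vector to 0.28 in the knockdown, a log2 difference of 0.49 or 1.41-fold. These 3 genes stood in the upper part of the listed increases, at ranks 28, 35 and 58 of 961.

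Pcdhb4 had an authors' mean of -0.28 in the empty vector and 0.19 in the knockdown, with a log2 difference of 0.47. Pcdhb10 had -0.25 and 0.16 in the same order, with a log2 difference of 0.41. Pcdhb14 had -0.24 and 0.17, also with a log2 difference of 0.41. The last 2 genes were nearly equal in the size of their difference, at 1.33-fold and 1.32-fold. Pcdhb18 followed with -0.19 in the empty vector, 0.18 in the knockdown and a log2 difference of 0.37. Pcdhb15 had the smallest difference of the beta genes, with -0.10 in the empty vector, 0.12 in the knockdown and a log2 difference of 0.22 or 1.16-fold.

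**Figure D1:**
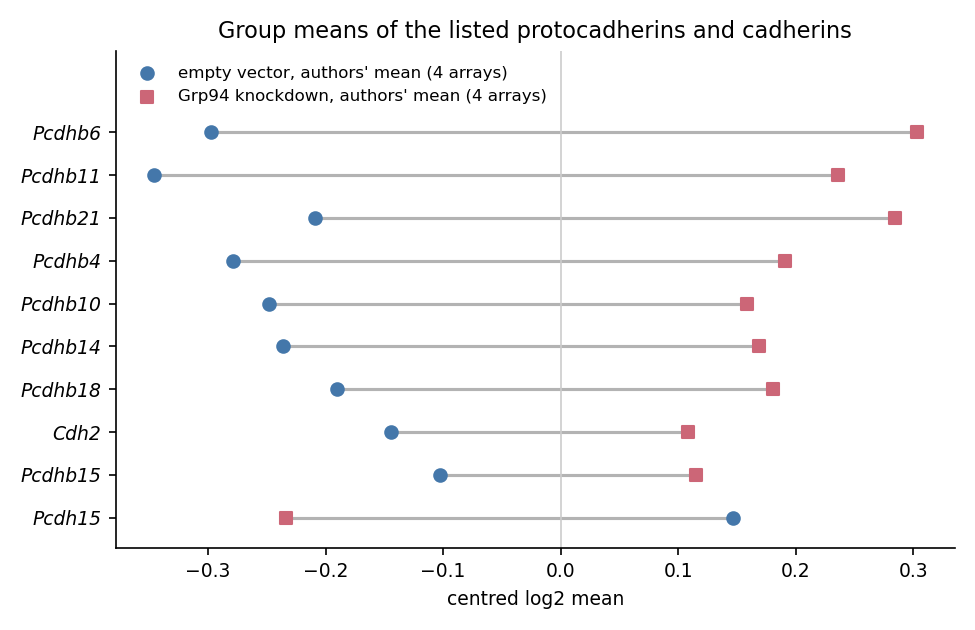
Authors' centred log2 mean of each of the 10 listed protocadherins and cadherins in the empty vector (circles, 4 arrays) and in Grp94 knockdown (squares, 4 arrays), joined by a line whose length is the log2 difference. Pcdhb6 has the longest line, from -0.30 to 0.30, and Pcdh15 is the only member whose knockdown mean lies to the left of its vector mean.

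The 8 beta protocadherins had a median log2 difference of 0.44, or 1.36-fold, and ranged from 0.22 to 0.60. All 8 means of the empty vector lay below 0, between -0.35 and -0.10, and all 8 means of the knockdown lay above 0, between 0.12 and 0.30. Because the means are centred around 0 for each transcript cluster, these signs only restate the direction of the differences. The background for this direction was 40.1%, the share of all listed transcript clusters that were higher. Relative to the median of all listed transcript clusters, the median of the beta genes was 0.60. That shift raises every difference, so none of the 8, all above 0 before it, could have changed direction.

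A 1.3-fold difference, which is 0.38 on the log2 scale, was used as a threshold of size. Past it were 6 of the 8 beta genes, all of them higher, where the background over the whole table was 6.26% (150 of 2395). Because the members were picked with results of this same comparison in view, nothing is read from this count. The member just inside the threshold on the higher side was Pcdhb14 at 0.41, and the member just outside it was Pcdhb18 at 0.37, or 1.29-fold. Pcdh15 was just past the threshold on the lower side, equal to it to the second decimal at -0.38. Relative to the listed median, all 9 higher members passed the same threshold, with Pcdhb15 just inside at 0.38, and Pcdh15 no longer passed it. That shift adds the same amount to every difference, so these passes are no further result about the members.

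**Figure D2:**
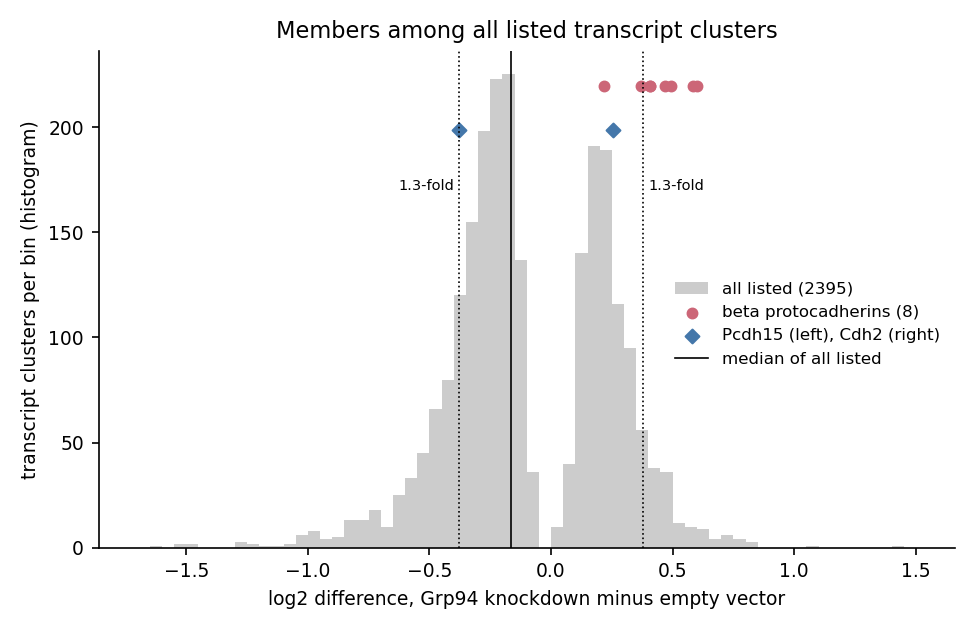
Histogram of the log2 difference, Grp94 knockdown minus empty vector, over all 2395 listed transcript clusters, with the 8 beta protocadherins (circles) and Pcdh15 and Cdh2 (diamonds) drawn above it at their own values and arbitrary height. Dotted lines mark a 1.3-fold difference and the solid line the median of -0.16. Few listed transcript clusters lie near 0, and the beta genes lie between 0.22 and 0.60.

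The mouse RefSeq gene table names 22 beta protocadherins, of which 8 were listed and 14 were not. None of the 14 alpha and none of the 22 gamma symbols was listed. In the order of genes along the cluster, taken from the GRCm38 gene table, the listed genes were spread among genes that were not listed. Pcdhb1, Pcdhb2 and Pcdhb3 precede the first listed gene, Pcdhb4, and Pcdhb22 follows the last, Pcdhb21. Between them lie 10 beta genes that were not listed, and only the pairs Pcdhb10 and Pcdhb11, and Pcdhb14 and Pcdhb15, are direct neighbours that were both listed. Beta protocadherins are close paralogues, and the probes behind each transcript cluster were not examined for matches to other members, so shared signal between related genes was not tested. Each of the 10 members had a transcript cluster with a single symbol.

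In the deposited coordinates, whose genome build is not given in the sources used here, the 8 genes lay on the plus strand of chromosome 18 between 37467109 and 37676017, a stretch of 209 kb. Pcdhb4 (transcript cluster 10455061) ran from 37467109 to 37470827, and Pcdhb6 (10455069) from 37493682 to 37496000. Pcdhb11 (10455088) ran from 37581072 to 37584381 and Pcdhb21 (10455135) from 37673306 to 37676017. The largest differences were therefore not gathered at an end of the cluster. Pcdhb10, at 37571328 to 37574168, and Pcdhb11 next to it differed from the vector by 0.41 and 0.58, and Pcdhb14 and Pcdhb15 by 0.41 and 0.22. The transcript clusters spanned 2319 to 5041 bp and held 24 to 31 probes each.

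**Figure D3:**
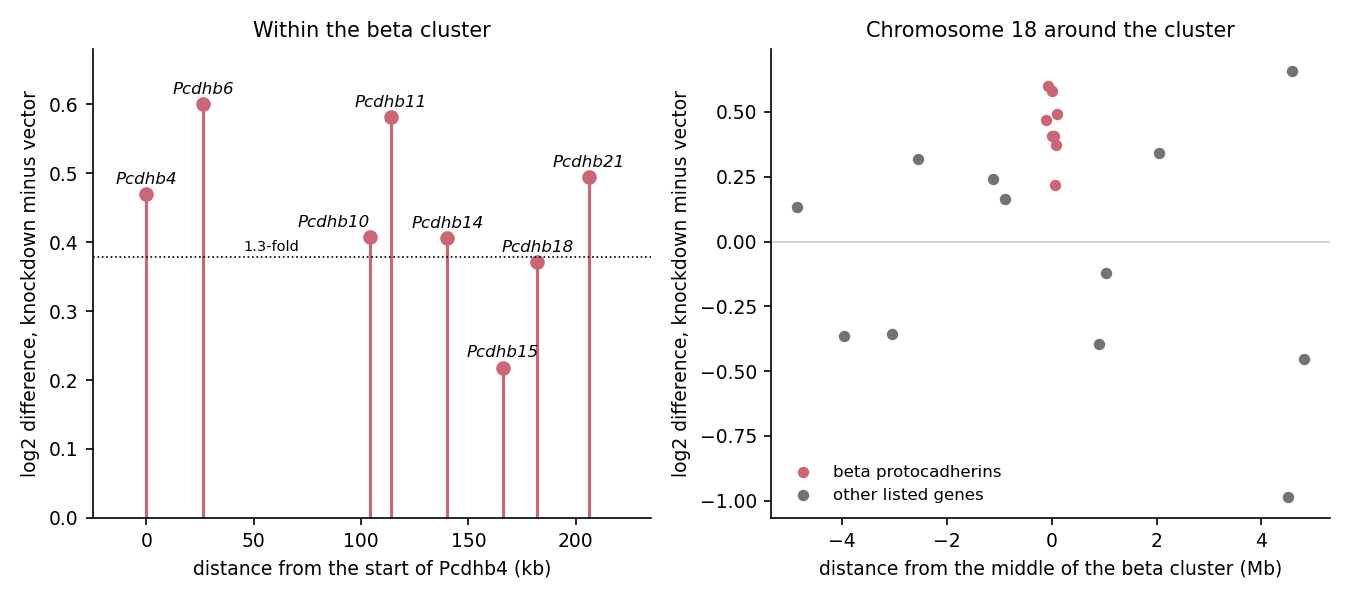
Left, log2 difference (knockdown minus vector) of the 8 listed beta protocadherins against distance from the start of Pcdhb4 in kb, with a dotted line at 1.3-fold. Right, the same difference for all listed transcript clusters within 5 Mb of the middle of the cluster, beta genes in red and the other 12 in grey; the other 12 are split evenly around 0, with 6 higher and 6 lower.

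Other genes around the cluster did not share its direction throughout. No other transcript cluster was listed between Pcdhb4 and Pcdhb21. Within 1 Mb of the cluster, 3 other genes were listed. Hbegf, an EGF-family growth factor 792 kb before it, had a log2 difference of 0.16, whereas Rnf14, a ubiquitin ligase 780 kb after it, had -0.40 and Ndfip1, an adaptor of ubiquitin ligases 903 kb after it, had -0.12. Within 5 Mb on either side, 6 of 12 other listed transcript clusters were higher and 6 were lower, from -0.98 for Prelid2 to 0.66 for Grxcr2. On the rest of chromosome 18, without the members, 23 of 50 listed transcript clusters (46.0%) were higher, with a median log2 difference of -0.11. Past 1.3-fold, 5 of the 50 were higher and 7 (14.0%) were lower, beside 6.26% and 16.1% over the whole table.

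The features of the probe sets were compared in the same descriptive way. Among listed transcript clusters outside the family with 24 to 31 probes, 496 of 1176 (42.2%) were higher and the median log2 difference was -0.17. Among those with a span of 2319 to 5041 bp, 82 of 200 (41.0%) were higher, with a median of -0.18. Both shares were close to the 39.9% of all listed transcript clusters without the members. No test against the beta genes was made, because the members were chosen on this comparison.

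The stretch from Pcdhb4 to Pcdhb21 held 8 listed transcript clusters. In windows of the same 209 kb begun at each of the other listed transcript clusters with a position, away from this stretch, at most 6 were listed. Along chromosome 18 the beta genes formed part of a run of 11 successive listed transcript clusters that were all higher, which began with Egr1, Pura and Hbegf. A longer run of higher ones was found in 1 other place, with 13 transcript clusters on chromosome 14 that mostly carry several predicted genes each, and the longest run of lower ones held 27. Only listed transcript clusters were counted, and the members were picked with this comparison in view. Nothing is therefore read from the density or from the length of the run.

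Cdh2 encodes N-cadherin, the main classical cadherin of neural cells. It also lies on chromosome 18 (transcript cluster 10457644, minus strand, 16747386 to 16967755), far from the protocadherins, and had 34 probes. Its authors' mean was -0.14 in the empty vector and 0.11 in the knockdown, a log2 difference of 0.25 or 1.19-fold. This was below the 1.3-fold threshold and larger than the difference of Pcdhb15 alone among the beta genes. None of the other 27 symbols that start with Cdh in the RefSeq table, including Cdh1 for E-cadherin, was listed.

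Pcdh15 encodes protocadherin 15, a protein of the tip links that open the transduction channels of inner ear hair cells. It was the only listed member of the 12 protocadherins outside the clusters. Its authors' mean was 0.15 in the empty vector and -0.23 in the knockdown, a log2 difference of -0.38, and 381 transcript clusters had a lower log2 difference. The share of all listed transcript clusters that were lower past 1.3-fold was 16.1%. Relative to the listed median, its difference was -0.22. The deposited table gives no position or probe number for its transcript cluster (10363921), and the gene lies on chromosome 10 in the RefSeq table.

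The other two members set beside the beta cluster thus pointed in opposite directions, at 0.25 and -0.38, with a midpoint of -0.06. That midpoint turned to 0.10 relative to the listed median, and the median of the beta cluster was above 0 either way. Both outcomes follow from adding the same amount to every difference, so nothing is read from the contrast. With 2 genes outside the cluster, no statement on the rest of the family can be made from these data.

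Partners and regulators of cadherins were then examined in 6 lists that hold 115 genes. Of these, 16 were listed, with 5 higher and 11 lower (6 and 10 relative to the listed median), and the median log2 difference was -0.23, beside -0.16 for all listed transcript clusters. Of all listed transcript clusters 40.1% were higher and 59.9% lower. None of the 16 was higher past 1.3-fold and 3 were lower past it, where the shares of all listed transcript clusters were 6.26% and 16.1%, so these counts are not a result about the lists. In the wider cadherin superfamily, 2 of 22 genes were listed. Dsc1, a desmosomal cadherin that also lies on chromosome 18, had a log2 difference of -0.49, and Dchs1, the large cadherin that binds Fat4, had 0.19. The transcript cluster of Dsc1 covered only a short stretch, from 20707088 to 20707829. Of the catenins and junction plaque proteins, 2 of 22 were listed and both were lower. Jup, or plakoglobin, which binds the tails of classical and desmosomal cadherins, had the larger difference with 0.30 in the empty vector and -0.23 in the knockdown, a log2 difference of -0.53. Arvcf, a relative of p120 catenin, had -0.24.

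Of the 21 genes for CTCF, cohesin and silencing factors, which act on the promoters of clustered protocadherins or on other neuronal genes, only Rest was listed. Rest encodes a repressor of neuronal genes, and its log2 difference was 0.29, from -0.15 in the empty vector to 0.14 in the knockdown. Ctcf and the cohesin genes Rad21, Smc1a and Smc3 were not listed, and their values are not known here.

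Among signalling partners of protocadherins, 5 of 21 genes were listed, and all 5 were lower (4 of 5 relative to the listed median), beside 59.9% lower over the whole table. With so few genes nothing is read from this count. The largest differences were those of Prkca, a protein kinase C, at -0.31, and of Ncstn, a subunit of the gamma-secretase that cleaves cadherins, at -0.28, on a transcript cluster shared with Copa. Wasf3, Abi2 and Cyfip2 of the WAVE actin complex had -0.14, -0.24 and -0.23, of which Wasf3 turned to 0.03 relative to the listed median. Of the 15 repressors of cadherins and Wnt factors, 4 were listed, 3 of them higher and 1 lower, beside 40.1% higher over the whole table. Snai2, a repressor of E-cadherin, had -0.31, whereas Zeb2, another repressor in the list, had 0.17. Lef1, a partner of beta-catenin, also had 0.17. Of 15 tip link and Usher genes other than Pcdh15, Lhfpl5, a subunit of the hair cell channel complex, had -0.39 and Myo7a, an unconventional myosin, had -0.19.

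**Figure D4:**
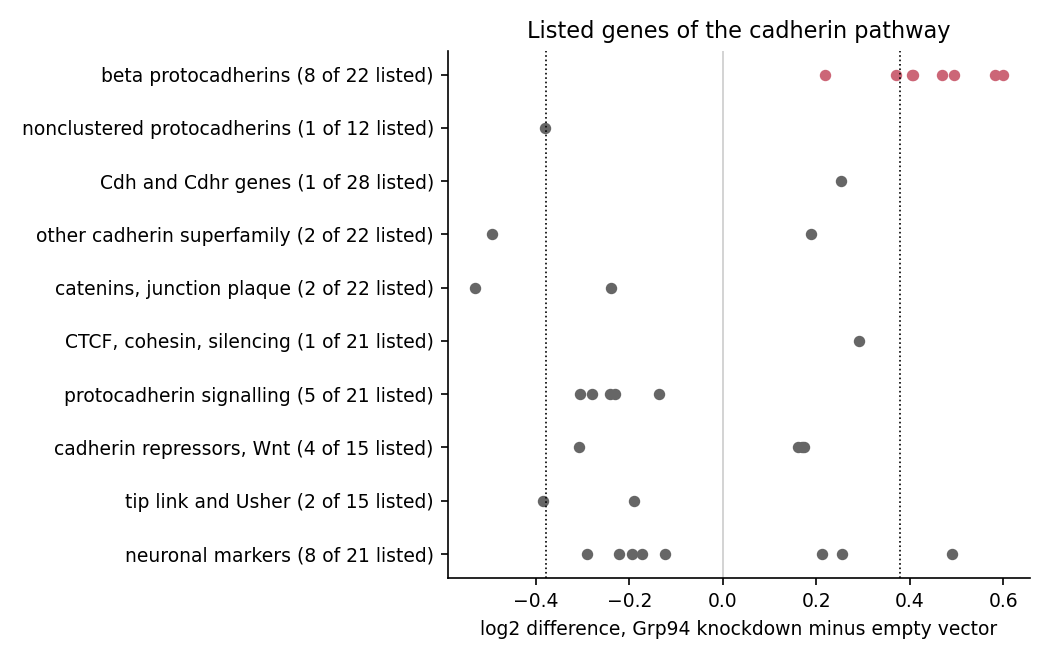
Log2 difference (knockdown minus vector) of every listed gene in 10 lists, each point being a gene, with dotted lines at a 1.3-fold difference and the number listed of the number in the list beside each name. The beta protocadherins lie between 0.22 and 0.60, while the 6 lists of partners and regulators hold 11 lower and 5 higher genes.

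Markers of cell identity were counted as well. Of 21 neuronal and sympathetic markers, 8 were listed, with 3 higher and 5 lower, or 4 and 4 relative to the listed median, where Th turned from -0.12 to 0.04. This split was near the 40.1% higher and 59.9% lower of the whole table. Dbh, the enzyme that makes noradrenaline, had a log2 difference of 0.49 and was the only marker past 1.3-fold. None of 26 markers of glia, microglia, endothelium, fibroblasts and epithelium was listed. Centred means keep no level, so these counts do not tell whether such markers were present.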

How the data were processed

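RNA of transfected N2a cultures was run by the authors on Affymetrix Mouse Gene 1.0 ST arrays and analysed in Agilent GeneSpring GX, without genes under the 20th percentile of expression. The authors deposited the log2 mean of each group of 4 arrays, centred for each transcript cluster. Probe summarization, normalization between arrays and genome build are not given in the sources used here. The authors' p-values, adjusted p-values and fold changes also stand in the table. They were not used, except that 0 transcript clusters were found above an adjusted p of 0.01.

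The difference was computed as the knockdown mean minus the vector mean. Of 2395 transcript clusters, 258 carried several symbols and 44 none. The positions of start and end and the number of probes are the deposited annotation. Gene identifiers of all 10 members matched the RefSeq gene table of GRCm38.p6, which was used for names and gene order only. No linear model was possible on pooled means. Members, lists and thresholds were chosen with earlier results of these data known. Genes named were all members, Hsp90b1, listed genes within 1 Mb of the beta cluster, and in each other list those past 1.3-fold or else the 2 of largest difference. Other names were chosen after their values were seen. Listed genes of these lists that are not named enter the counts, except 1 gene that was left out of lists and counts and is not reported here. Alternatives changed the zero point, fold threshold, membership and treatment of transcript clusters. Python 3.11.15, numpy 2.4.6, pandas 2.3.3 and matplotlib 3.10.9 were used, and the scripts were tested on simulated data.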

Additional observations from a re-analysis of the deposited data

How the results depend on the processing

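Of 27 alternatives, 20 left the value the same, which for a count means within 1.5 times and for a median to the second decimal. Many of these could not have differed. Keeping transcript clusters with 1 symbol, those with at least 10 probes where given, or 1 per symbol removed none of the 10 members. With Pcdh symbols alone, the beta genes were the same 8. The count of 20 is therefore no measure of robustness. No paired analysis was possible because values per array were not used here, and for that reason no array could be left out and no normalization changed. Re-centring on the median of all listed transcript clusters moved the median of the beta cluster from 0.44 to 0.60 and turned that of the 2 other members from -0.06 to 0.10, by construction, since it adds the same amount to every difference. With Pcdh symbols alone the latter was -0.38, the value of Pcdh15. Of 7 members past a 1.3-fold difference, 1 passed 1.5-fold and 0 passed 2-fold. Leaving out Pcdhb6 or Pcdhb15, which was chosen after seeing the data like the re-centring of the other lists, gave 0.41 and 0.47 for the beta cluster. The number of higher members was 9 of 10 after re-centring as well, and it could not have differed. The shift raises every difference and is smaller than the distance of Pcdh15 from 0. The depth behind each mean is 4 arrays, and the number of arrays limits the precision.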
